A study of Mus musculus with 4 samples.

Results

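The genes described here encode the nuclear parts of the mitochondrial respiratory chain and of ATP synthase. They were chosen by a rule of names that used no measured value, though earlier results of these data were known. The rule covers genes read by a probe set with a single gene symbol. That symbol starts with Nduf, Uqcr or Atp5, is one of Sdha to Sdhd, or is Cox4 to Cox8 followed by a letter or number. This took 89 of the 22180 genes tested. By their known place in the chain, 32 belong to complex I, 8 are complex I assembly factors, 4 belong to complex II, 7 to complex III, 19 to complex IV and 17 to complex V (ATP synthase), and 2 are pseudogenes. Another 9 genes of the same names, among them Cox6c, Ndufs6 and Uqcr10, were read only by probe sets that carry several symbols and were left out. The 13 subunits that the mitochondrial genome itself encodes are not analysed here.

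The cells were peritoneal macrophages from wild type animals of strain 129S6/SvEvTac (called 129S6) and of C57BL/6 (called B6, substrain not given), all on regular chow. The animals, 3 months old, had received 1 ml of 4% thioglycollate into the peritoneal cavity, which draws in monocytes and macrophages, and cells were washed out 4 days later and cultured overnight with 10% serum. Each of the 4 arrays carried pooled RNA of 3 mice by the labels, with 1 array for females and 1 for males of each strain. All groups shared the injection and the culture, so there is no untreated or freshly isolated group. Values are log2 intensities, and a difference of 1 is a 2-fold change. Since each strain has 2 pools, no exact permutation test of a single gene could go below p = 0.333 (two-sided).

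Complexes I and II pass electrons from NADH and succinate to coenzyme Q, complex III passes them on to cytochrome c, and complex IV, cytochrome c oxidase, gives them to oxygen. Complexes I, III and IV pump protons as they do so, and ATP synthase uses the returning protons to make ATP. In macrophages the chain is known for more than ATP: inflammatory activation lowers oxygen use and turns succinate oxidation and complex I into sources of reactive oxygen, while alternative activation depends on oxidative phosphorylation.

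Across genes the arrays of a strain correlated at 0.988 to 0.989 and arrays of different strains at 0.969 to 0.980, and medians of the 4 arrays lay between 4.85 and 4.87. On the female arrays 3 Y-linked genes read 2.24 to 4.71, taken here as the level of background. All 10 macrophage markers examined were measured, with Cd68 at 12.44 to 12.54 and Csf1r at 11.96 to 12.40, and 0 of them passed the strain test. At an unadjusted limma p under 0.05, 4 were higher and 3 lower in B6, against 6.99% and 9.36% of all genes. The 10 differences ran from -0.87 (Itgam) to 1.72 (Fcgr1). Markers of some other cells passed the strain test. The 8 genes of large resident peritoneal macrophages had a median difference of -2.57 (4 passed the test, all lower in B6), with a summed linear level of 8856 to 13386 in the 129S6 arrays and 1137 to 1553 in the B6 arrays. The 10 fibroblast and mesothelial genes had a median of -1.92 (3 passed, all lower in B6), with sums of 3402 to 3782 in 129S6 and 568 to 866 in B6. Of the 5 eosinophil genes, Siglecf passed, higher in B6 by 1.88 (adjusted p = 0.0438), with sums of 61.4 to 61.5 in 129S6 and 130 to 161 in B6, while Prg2 and Epx, which define that cell type, read 2.89 to 3.47, at background. The 5 B cell genes measured were all lower in B6 (median -0.64), and 0 passed in them or in the neutrophil, mast cell, T cell, striated muscle and adipocyte lists. The part of these cells in the values below was not tested, and in such bulk samples fewer cells of a type and less RNA per cell cannot be told apart.

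None of the respiratory chain genes passed the strain test, and most had small measured differences. With a linear model of strain and sex (limma, p-values adjusted over all genes, called under 0.05), 0 of 89 were called for strain, against 189 of all 22180 genes (0.852%). The smallest adjusted p among them was 0.118. At an unadjusted p under 0.05, 13 of 89 stood out (14.6%; 6 higher and 7 lower in B6), a share near that over all genes (16.3%). Of the 89 genes, 69 (77.5%) lay within 0.32 on the log2 scale, as did 67.2% of all genes. Only 2, Cox7c and Cox8b, differed 2-fold or more. The precision sets what could have been seen: the 95% interval of a difference reached a median of 0.44 (1.36-fold) to either side, from 0.42 to 0.88 over the 89 genes, and the smallest difference called among all genes was 1.59 (3.01-fold).

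**Figure D1:**
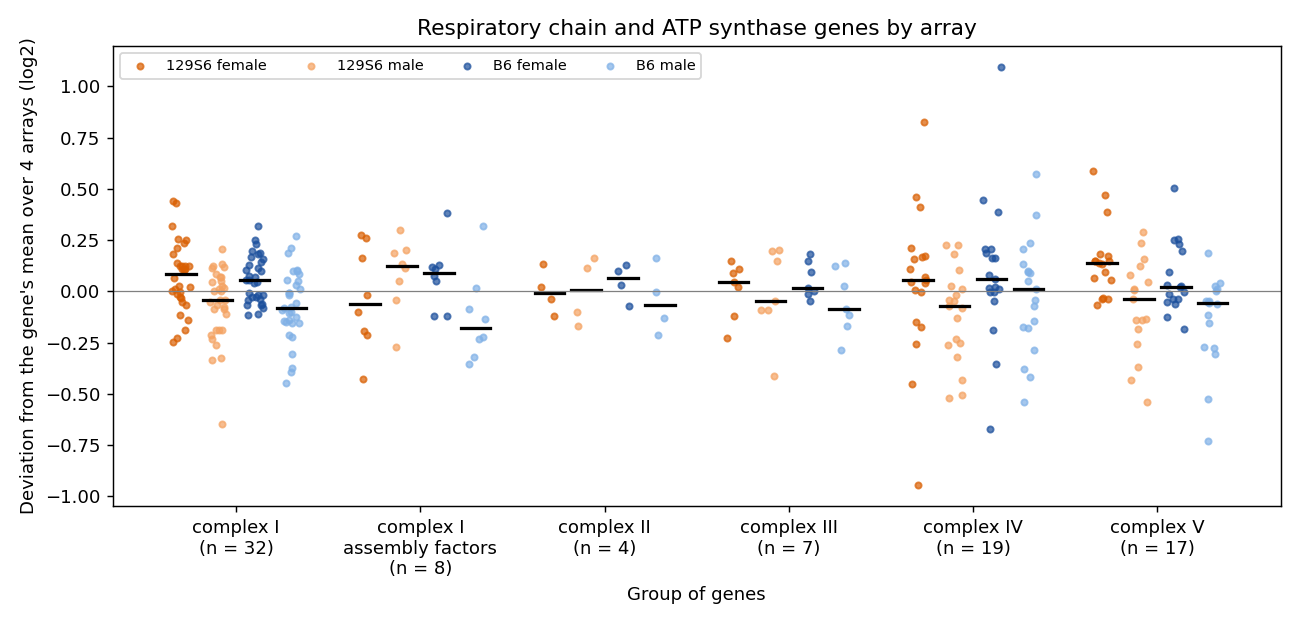
Deviation of each gene from its own mean over the 4 arrays (log2, vertical axis), by complex, for the 129S6 female, 129S6 male, B6 female and B6 male array; points are genes and black bars medians. The medians of all groups lie near 0 on every array, and the widest points, in complex IV, are those of Cox7c.

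By complex, the median difference (B6 minus 129S6) was -0.06 for complex I, -0.05 for complex II, -0.02 for complex III, -0.01 for complex IV and -0.04 for complex V, beside -0.02 over all genes tested. The complex I assembly factors had a median of -0.10. Within the sexes the medians were -0.04 in females and -0.06 in males for complex I, -0.01 and -0.07 for complex II, -0.02 and -0.02 for complex III, -0.03 and 0.08 for complex IV, and -0.12 and -0.07 for complex V. For the assembly factors they were 0.15 and -0.28, which lie on opposite sides. Leaving out single arrays turned the sign of the median of each of these 6 groups. The values ran from -0.12 to 0.02 for complex I, -0.09 to 0.01 for complex II and -0.12 to 0.08 for complex III. They ran from -0.10 to 0.09 for complex IV, -0.13 to 0.00 for complex V and -0.23 to 0.05 for the assembly factors. These fits had no sex term, so both sexes of a strain were set against a single sex of the other. A sex difference thus enters their values, and its part in the turned signs was not tested. The medians within the sexes, given above, do not mix the sexes. They kept the same sign in complexes I, II, III and V, but not in complex IV or the assembly factors. B6 was lower by any amount in 52 of 89 genes (58.4%), against 52.5% of all genes.

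The arrays of the strains did not overlap in 39 of 89 genes (43.8%), against 48.9% of all genes. B6 was higher in 18 (22.8% of all genes were so) and lower in 21 (26.1%). In 6 genes (6.74%) the strains were 1.5-fold or more apart, in 1 direction, among females and among males, against 7.47%: Cox7a2l, Cox7c and Ndufaf7 with more in B6, and Atp5o, Atp5g1 and Cox8b with less. The female and the male strain differences of the 89 genes correlated across genes at r = 0.62 (rho = 0.48), and at r = 0.57 (rho = 0.39) over all genes. They had the same sign in 58 of 89 genes (65.2%), against 63.4% of all genes. Genes are not independent replicates and these values carry no test.

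**Figure D2:**
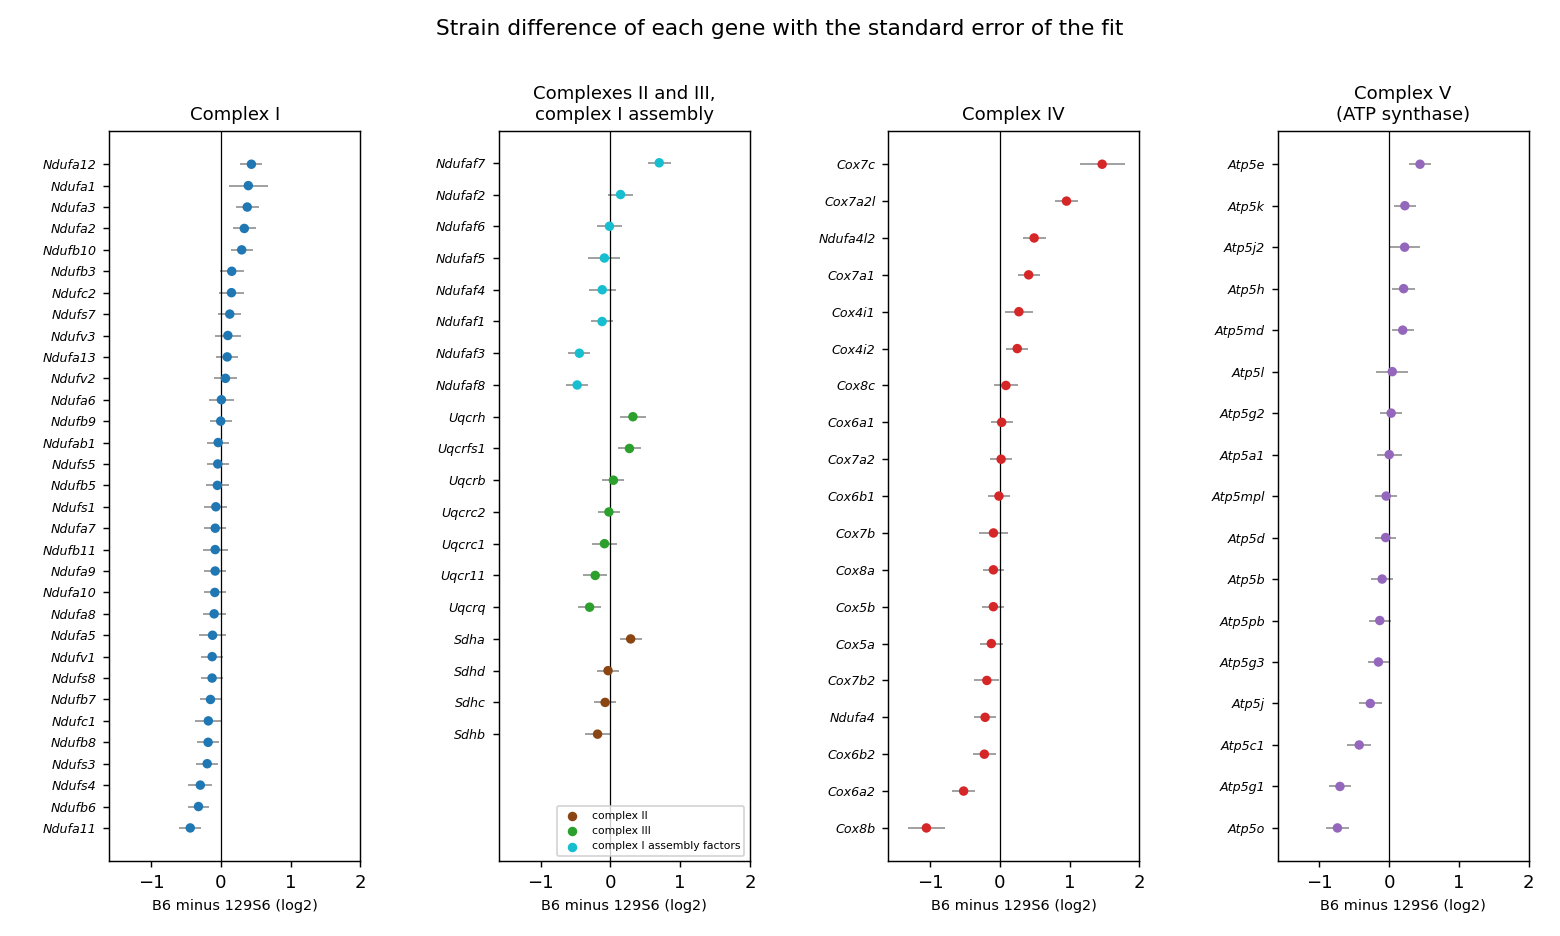
Strain difference (B6 minus 129S6, log2, horizontal axis) of each subunit and assembly factor, in panels by complex; points are the fitted differences and bars the standard error of the fit. Most points lie within 0.32 of 0, and Cox7c (1.47), Cox7a2l (0.96) and Cox8b (-1.05) lie farthest out.

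**Figure D3:**
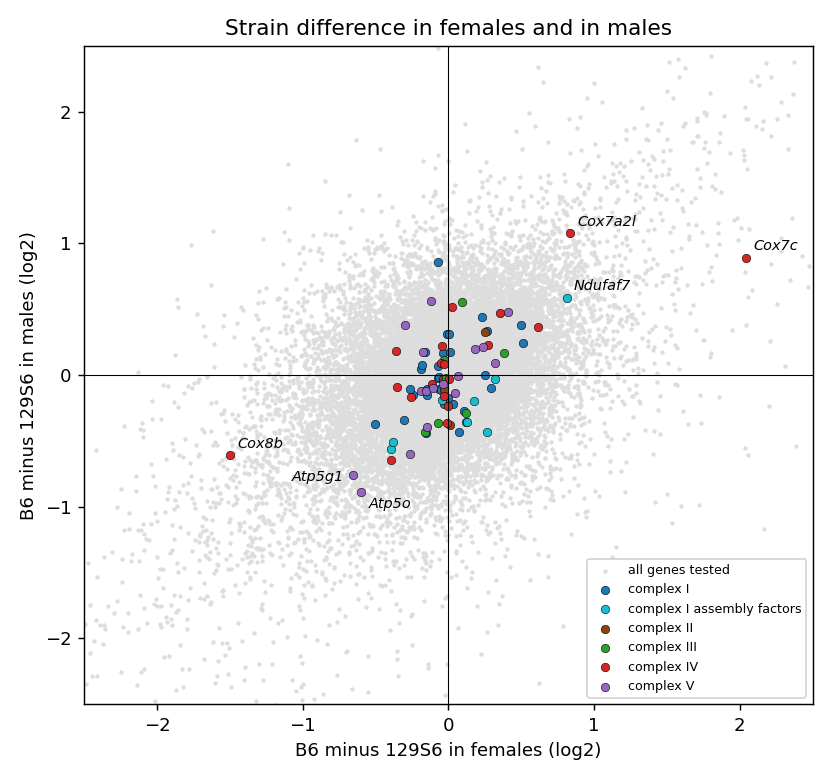
Strain difference in females (horizontal axis) against that in males (vertical axis), both log2, for the subunits and assembly factors in colour by complex and all genes tested in grey (grey points beyond the axes are not drawn). Cox7c lies at 2.04 in females and 0.89 in males, Cox7a2l at 0.84 and 1.08, and most of the coloured points lie near 0 on both axes.

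In complex I, the NADH dehydrogenase, 13 of 32 genes (40.6%) had arrays that did not overlap between the strains, against 48.9% of all genes, 6 with more and 7 with less in B6. An unadjusted p under 0.05 was found for 2 (6.25%, against 16.3%). The 6 core subunits, which form the path of electron transfer, had differences from -0.20 to 0.13 and a median of -0.10. Ndufv1, which binds NADH and the flavin, read 10.01 and 9.91 in 129S6 (female, then male, as in all values below) and 9.86 and 9.81 in B6, with a difference of -0.12 (95% interval -0.55 to 0.30). Both B6 arrays were lower, by less than the error of the fit. Ndufs1, the largest iron-sulfur subunit, read 8.56 and 8.39 in 129S6 and 8.38 and 8.43 in B6 (-0.07, interval -0.52 to 0.38), with overlapping arrays. Ndufs3, a core subunit of the arm that reaches coenzyme Q, read 7.17 and 7.12 in 129S6 and 6.93 and 6.96 in B6 (-0.20).

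The widest differences in complex I were those of accessory subunits, which surround the core and carry no cofactor of the electron path. Ndufa12 read 6.29 and 6.35 in 129S6 and 6.79 and 6.73 in B6, without overlap, a difference of 0.44 ± 0.16 (SE of the fit; limma adjusted p = 0.299). Its second probe set had a difference of 0.08, and the gene has a named pseudogene, so the value is uncertain. Ndufa11, a membrane arm subunit, read 9.86 and 9.42 in 129S6 and 9.36 and 9.04 in B6, with a difference of -0.44 ± 0.16 (adjusted p = 0.299), with the lower 129S6 array just above the higher B6 array. Its second probe set gave -0.06. Within the sexes, the difference of the kept probe set was -0.50 in females and -0.38 in males. It was -0.22 without the 129S6 female array and -0.66 without the 129S6 male array, in fits with no sex term.

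Other accessory subunits had smaller differences. Ndufa3 read 10.11 on both 129S6 arrays and 10.62 and 10.35 in B6 (0.38), and Ndufa2 8.72 and 8.39 in 129S6 and 8.95 and 8.83 in B6 (0.34). Ndufb8, of the far end of the membrane arm, read 6.99 and 6.81 in 129S6 and 6.73 and 6.71 in B6 (-0.18). For each of these the B6 arrays lay on one side of the 129S6 arrays, and the limma adjusted p ran from 0.372 to 0.630.

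The 8 assembly factors, which build complex I and are not part of it, held 3 genes with an unadjusted p under 0.05 (37.5%, against 16.3% of all genes). Ndufaf7, a methyltransferase that modifies a core subunit during assembly, read 5.95 and 6.11 in 129S6 and 6.76 and 6.70 in B6, with a difference of 0.70 ± 0.16 (SE; adjusted p = 0.174; 95% interval 0.25 to 1.15). Both B6 arrays were higher. Ndufaf3, which acts early in assembly, read 9.22 and 9.15 in 129S6 and 8.85 and 8.64 in B6 (-0.44, adjusted p = 0.297), and Ndufaf8, a small partner of another assembly factor, read 7.99 and 7.92 in 129S6 and 7.60 and 7.36 in B6 (-0.48, adjusted p = 0.278). Both B6 arrays were lower in these, so the factors did not share a direction.

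Complex II, succinate dehydrogenase, is the only one of the complexes built wholly from nuclear genes. Sdha, the flavin subunit that oxidizes succinate, read 10.45 and 10.40 in 129S6 and 10.70 and 10.74 in B6, with a difference of 0.29 (95% interval -0.13 to 0.72), and was the only one of the 4 genes whose arrays did not overlap. Sdhb, the iron-sulfur subunit, read 9.13 and 9.28 in 129S6 and 9.14 and 8.90 in B6 (-0.18). The membrane anchors Sdhc and Sdhd had differences of -0.07 and -0.03. The partners of 1 enzyme thus had fitted values on both sides of 0, none of them past the test.

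In complex III, which passes electrons from coenzyme Q to cytochrome c, 4 of 7 genes (57.1%, against 48.9% of all genes) had arrays that did not overlap and 0 had an unadjusted p under 0.05. Uqcrfs1, the Rieske iron-sulfur protein, read 6.62 and 6.81 in 129S6 and 7.0 and 6.97 in B6 (0.27). Uqcrh, the hinge protein, read 8.04 and 7.53 in 129S6 and 8.13 and 8.09 in B6 (0.32). Its difference was 0.09 in females and 0.55 in males. In fits with no sex term, it was 0.07 without the 129S6 male array and 0.58 without the 129S6 female array. Uqcrh has 2 named pseudogenes, and Uqcrh-ps1 has a probe set of its own. Among the small subunits with less in B6, Uqcrq read 6.33 and 6.34 in 129S6 and 6.17 and 5.90 in B6 (-0.30), and Uqcr11 7.95 and 8.13 in 129S6 and 7.88 and 7.76 in B6 (-0.22). Uqcrc1, a core protein without cofactor, had overlapping arrays (10.74 and 11.06 in 129S6, 10.86 and 10.77 in B6).

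Complex IV held the widest differences of all 89 genes. Of its 19 genes, 9 had arrays that did not overlap (47.4%, against 48.9% of all genes; 5 higher and 4 lower in B6) and 5 had an unadjusted p under 0.05 (26.3%, against 16.3%). Cox7a2l, a relative of the complex IV subunit Cox7a that helps join complexes III and IV into supercomplexes, read 6.26 and 6.21 in 129S6 and 7.10 and 7.29 in B6. Its mean was 6.24 ± 0.04 (SD, n = 2) for 129S6 and 7.19 ± 0.13 for B6, and the difference was 0.96 ± 0.17 (SE, 1.94-fold; 95% interval 0.50 to 1.41; limma adjusted p = 0.118). Both B6 arrays were clearly above both 129S6 arrays. C57BL/6 mice are known to carry a shorter form of this protein than several other inbred strains. The values here do not tell the forms apart. Strain variants under the probes of this gene were not looked at, so their part in the difference was not tested. With a variance prior that follows the level, Cox7a2l passed the test (limma adjusted p = 0.0272; 2 of 89 called, against 5.66% of all genes), as it did among the brighter genes alone (0.0456; 1 called, against 5.31%).

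Cox7c, a small membrane-spanning subunit present in all tissues, had the largest difference. It read 5.20 and 5.63 in 129S6 and 7.24 and 6.52 in B6, with means of 5.41 ± 0.30 (SD, n = 2) and 6.88 ± 0.51. The difference was 1.47 ± 0.32 (SE, 2.76-fold; 95% interval 0.59 to 2.34; limma adjusted p = 0.162), and was 2.04 in females and 0.89 in males. All B6 values were above all 129S6 values, but the arrays of each strain lay far apart. It passed the test with the variance prior that follows the level (adjusted p = 0.0418) and without the B6 male array (1.83, limma adjusted p = 0.0462; 1 of 89 called, against 1.2%). A pseudogene, Cox7c-ps1, is named in the annotation, and whether the probe set also reads it was not examined.

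The promoters of Cox7a2l and Cox7c, which had the widest differences among genes read above background, are given as RefSeq has them on the GRCm38.p6 assembly, from 250 bases before to 50 bases after the transcription start, 5′ to 3′ on the gene's strand. Cox7a2l lies at chr17:83514284-83514583, minus strand, and Cox7c at chr13:86046746-86047045, minus strand. They stand in lower case throughout because neither window holds any of the motifs searched for below.
Cox7a2l: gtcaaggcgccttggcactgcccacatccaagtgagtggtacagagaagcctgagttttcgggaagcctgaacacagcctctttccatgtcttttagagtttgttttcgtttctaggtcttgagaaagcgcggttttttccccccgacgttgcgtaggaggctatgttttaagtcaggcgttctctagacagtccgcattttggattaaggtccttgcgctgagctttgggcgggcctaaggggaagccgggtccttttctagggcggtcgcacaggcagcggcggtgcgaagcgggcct
Cox7c: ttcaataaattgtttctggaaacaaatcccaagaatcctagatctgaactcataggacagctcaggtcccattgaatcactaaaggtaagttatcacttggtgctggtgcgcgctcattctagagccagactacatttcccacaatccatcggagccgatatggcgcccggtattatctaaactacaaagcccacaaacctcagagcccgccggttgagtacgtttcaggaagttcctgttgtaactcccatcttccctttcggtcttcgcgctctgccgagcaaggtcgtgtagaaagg

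**Figure D4:**
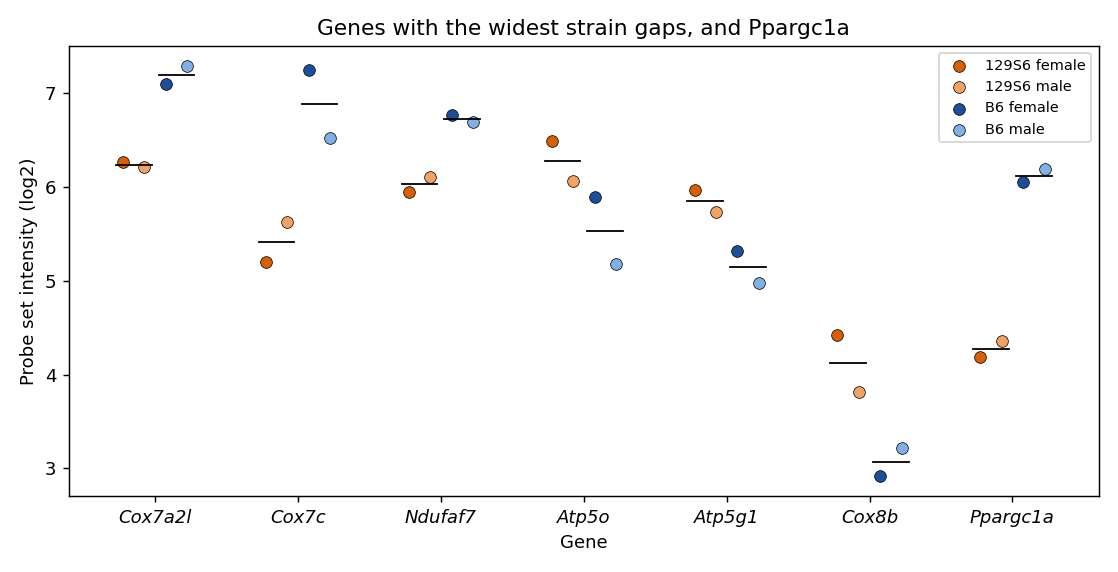
Log2 intensity (vertical axis) of the 6 genes with strain gaps of 1.5-fold or more among females and among males, and of Ppargc1a, described further on; each point is an array, and bars are strain means. Cox7a2l, Cox7c, Ndufaf7 and Ppargc1a have both B6 points above both 129S6 points, and Atp5o, Atp5g1 and Cox8b have them below.

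Several subunits of complex IV exist as a common form and a form restricted to some tissues. The common forms Cox4i1 (10.30 and 9.71 in 129S6, 10.33 and 10.23 in B6), Cox6a1 (12.40 and 12.29 in 129S6, 12.38 and 12.37 in B6) and Cox8a (11.44 and 11.39 in 129S6, 11.32 and 11.33 in B6) had differences of 0.27, 0.03 and -0.09. Cox6b1 had -0.01, Cox7a2 0.02 and Cox7b -0.09. A second probe set of Cox7b gave 0.50, so its probe sets disagreed. Ndufa4, named after complex I but now known as a subunit of complex IV, read 9.32 and 8.61 in 129S6 and 9.07 and 8.44 in B6 (-0.21). Apart from Cox8a, the arrays of the strains overlapped in all of these.

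Among the restricted forms, Cox6a2, known from heart and skeletal muscle, read 8.58 and 8.27 in 129S6 and 8.19 and 7.63 in B6, with a difference of -0.52 ± 0.17 (SE; adjusted p = 0.263), with both B6 arrays lower. The difference was -0.39 in females and -0.64 in males. In fits with no sex term, it was -0.24 with the B6 male array left out and -0.80 with the B6 female one left out. The 8 striated muscle markers read 2.76 to 5.93, had a summed linear level of 219.5 to 240.4 in 129S6 and 224.9 to 257.0 in B6 and a median difference of -0.01, and 0 of 8 passed the test; their part in the Cox6a2 values was not tested. Cox7a1, the muscle form of subunit 7a, read 5.0 and 4.88 in 129S6 and 5.35 and 5.36 in B6 (0.41, adjusted p = 0.317). Ndufa4l2, which hypoxia induces, read 4.33 and 4.19 in 129S6 and 4.95 and 4.55 in B6 (0.49, adjusted p = 0.278). All of these but the B6 female array lay within the range of background, so the size of this difference depends on that background. Cox4i2, of lung and smooth muscle, had 0.25, and the testis form Cox6b2 -0.22.

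Cox8b, the muscle and brown fat form of subunit 8, read 4.42 and 3.82 in 129S6 and 2.92 and 3.21 in B6, with a difference of -1.05 ± 0.27 (SE; 95% interval -1.78 to -0.32; adjusted p = 0.197). All 4 values lay within the range of the Y-linked genes on female arrays. The testis forms Cox7b2 and Cox8c and both pseudogenes also read at or under the highest of those values on every array, so a difference of any of these 5 genes is one between readings at background.

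In ATP synthase, 8 of 17 genes had arrays that did not overlap (47.1%, against 48.9% of all genes), 2 with more in B6 (22.8% of all genes were so) and 6 with less (26.1%). An unadjusted p under 0.05 was found for 3 (17.6%, against 16.3%). In the head, where ATP is formed, the catalytic Atp5b read 12.65 and 12.64 in 129S6 and 12.54 on both B6 arrays (-0.10, 95% interval -0.52 to 0.32). Its partner Atp5a1 read 11.52 and 11.25 in 129S6 and 11.35 and 11.43 in B6 (0.00, interval -0.48 to 0.48). Atp5c1, the turning shaft, read 5.94 and 6.10 in 129S6 and 5.68 and 5.50 in B6 (-0.43, adjusted p = 0.341), and a pseudogene of it is named. Atp5e, whose values are given with the sexes, had a strain difference of 0.44 (adjusted p = 0.294) with overlapping arrays. Its second probe set gave 0.32, without overlap.

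Atp5o, the stalk protein that holds the head in place, read 6.49 and 6.06 in 129S6 and 5.89 and 5.18 in B6, with a difference of -0.74 ± 0.17 (SE; 95% interval -1.21 to -0.28; adjusted p = 0.170). The B6 female array was only a little below the 129S6 male array, and males were lower in both strains. The difference was -0.60 in females and -0.89 in males. In fits with no sex term, leaving out the B6 male array gave -0.38, and leaving out the B6 female array -1.10. Over the 4 stalk genes, Atp5o included, the median was -0.20, and Atp5h read 10.42 and 10.35 in 129S6 and 10.74 and 10.44 in B6 (0.21). The second probe set of Atp5h gave -0.07, so its probe sets disagreed in sign. The kept one gave 0.32 in females and 0.09 in males. In fits with no sex term, it gave 0.05 without the B6 female array and 0.36 without the B6 male array.

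The proton-driven ring of ATP synthase is made of copies of 1 protein that 3 genes encode, and the mature products of these genes are known to be identical. Atp5g1 read 5.97 and 5.73 in 129S6 and 5.31 and 4.97 in B6, with a difference of -0.71 ± 0.16 (SE; 95% interval -1.13 to -0.28; adjusted p = 0.165), without overlap. Atp5g2 read 10.83 and 10.88 in 129S6 and 10.90 and 10.87 in B6 (0.03), and Atp5g3 8.65 and 8.51 in 129S6 and 8.47 and 8.39 in B6 (-0.15). Probe sets of different genes cannot be ranked by level, so their shares in the ring RNA are not given. The 5 small membrane subunits had a median of 0.19, and Atp5k, which takes part in pairing the enzyme, read 7.25 and 7.10 in 129S6 and 7.49 and 7.31 in B6 (0.22).

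The sex comparison (male minus female, same fit) also called 0 of 89 genes, against 3 of all genes (0.0135%), and the smallest adjusted p was 0.860. At an unadjusted p under 0.05 there were 6 of 89, beside 5.22% of all genes: 5 lower in males (2.87%) and 1 higher (2.35%). Males were lower in both strains by any amount in 43 of 89 genes (48.3%), against 24.1% of all genes, and higher in both in 8 (8.99%), against 28.5%. Male arrays lay below both female arrays in 24 genes (27.0%), against 12.3% of all genes, and above them in 5 (5.62%), against 14.7%. The median difference was -0.10 (-0.10 in 129S6 and -0.12 in B6), beside 0.01 over all genes. By complex, males were lower in both strains in 16 of 32 genes of complex I, 1 of 4 of complex II, 2 of 7 of complex III, 9 of 19 of complex IV and 12 of 17 of ATP synthase. The large resident macrophage genes also had lower male values, with a median of -0.48 and 6 of 8 lower in males of both strains, and their part in the sex differences was not tested.

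Ndufa4 was the widest, at 9.32 in the female and 8.61 in the male array of 129S6 and at 9.07 and 8.44 in B6, with a difference of -0.67 ± 0.16 (SE; adjusted p = 0.860). Atp5e, the small epsilon subunit of the head of ATP synthase, read 8.71 and 8.08 in 129S6 and 9.12 and 8.55 in B6, with a difference of -0.60 ± 0.16 (adjusted p = 0.860). On the kept probe set of both genes each male array was lower than the female array of its strain, with differences within a strain from -0.71 to -0.57. A second probe set of Atp5e read 5.67 and 5.82 in 129S6 and 6.19 and 5.93 in B6. On it the male value was the higher one in 129S6, so the sex difference of Atp5e is uncertain. Atp5o had -0.57, and fits on 3 arrays, with no strain term, gave -0.13 when the B6 male array was left out and -1.02 when the 129S6 male array was. With these 3, the accessory complex I subunits Ndufb6 (-0.56) and Ndufa6 (-0.48) complete the 5 genes with lower male values and an unadjusted p under 0.05; the last 2 are named because of their values. On the other side, the pseudogene Uqcrh-ps1 (0.58) was at background, and Cox6b2 (0.36) and Cox4i2 (0.25) were the next. Across genes, the sex differences in 129S6 and in B6 correlated at r = 0.27 (rho = 0.25) over the 89 genes and at r = 0.09 (rho = 0.05) over all genes. With 1 pool per strain and sex, the sex of the mice and the handling of an array cannot be told apart. For the same reason no test of a strain effect that depends on sex was possible.

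**Figure D5:**
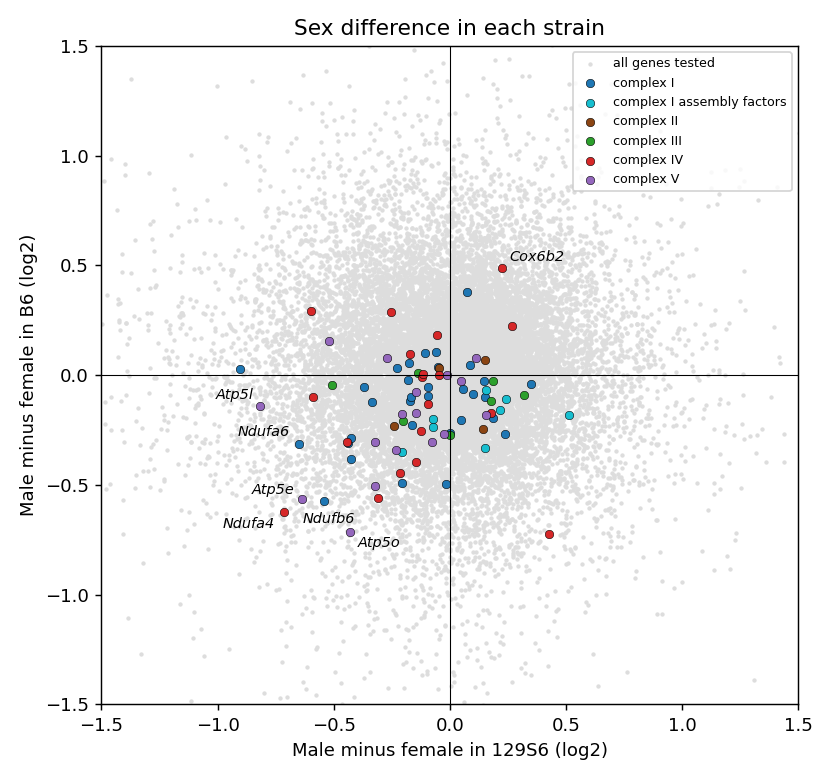
Male minus female difference (log2) in 129S6 (horizontal axis) against that in B6 (vertical axis), subunits and assembly factors in colour by complex and all genes tested in grey (grey points beyond the axes are not drawn). Males were lower in both strains, the lower left, in 43 of the 89 genes and higher in both, the upper right, in 8, of which 2 are pseudogenes and not drawn.

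Nuclear genes of the chain are known to share binding sites of a few transcription factors near their start, among them NRF1, the ETS family factor GABP and YY1. Of the 89 genes, 72 had a promoter in the RefSeq table (GRCm38.p6), each of 300 bases. Exact letters were searched for on both strands: a long NRF1 motif, shown in capitals in the windows that follow, its core GCATGCGC, which lies within the long motif, CCGGAAG for ETS factors and AAGATGGC for YY1. The long NRF1 motif was in 7 of 72 promoters (9.72%), against 1.5% of the promoters of all genes tested and 0.971% of all promoters in the table. The core was in 12 (16.7%, against 4.07% and 2.71%), the ETS motif in 19 (26.4%, against 12.7% and 8.86%) and the YY1 motif in 10 (13.9%, against 3.65% and 2.75%). At least 1 of the 4 was in 34 promoters. These are matches of letters, not sites shown to be bound.

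The long NRF1 motif lay before the start in 5 genes, and a window of 50 bases around each shows how the same letters sit in different surroundings (motif in capitals, 5′ to 3′ on the gene's strand). The windows are chr17:56717682-56717731, plus strand, for Ndufa11, chr4:24897950-24897999, plus strand, for the assembly factor Ndufaf4, chr5:115349091-115349140, minus strand, for Cox6a1, chr15:102671060-102671109, minus strand, for Atp5g2, and chr5:108434420-108434469, minus strand, for Atp5k. Counted from the transcription start, the motif begins at -60, -113, -162, -42 and -50 in that order.
Ndufa11: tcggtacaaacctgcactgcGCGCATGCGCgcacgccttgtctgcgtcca
Ndufaf4: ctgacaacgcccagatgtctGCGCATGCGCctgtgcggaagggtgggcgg
Cox6a1: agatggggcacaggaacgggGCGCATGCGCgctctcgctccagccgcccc
Atp5g2: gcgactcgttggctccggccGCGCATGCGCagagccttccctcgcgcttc
Atp5k: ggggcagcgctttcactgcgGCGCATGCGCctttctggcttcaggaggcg

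The genes that share this motif had strain differences on both sides of 0. Ndufa11 had -0.44, Ndufaf4 -0.12, Cox6a1 0.03, Atp5g2 0.03 and Atp5k 0.22, and 0 of them passed the test. The median over all 7 holders was -0.08, over the 12 with the core -0.08, over the 19 with the ETS motif -0.09 and over the 10 with the YY1 motif -0.16, beside -0.04 over the 89 genes.

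The wider machinery of mitochondrial energy supply was read from 14 lists, of which 13 had measured genes, 187 of 211 in all. Of these, 1 gene was called, a share no higher than the 0.852% of all genes. It was Ppargc1a, the coactivator known as a driver of mitochondrial biogenesis, which read 4.19 and 4.35 in 129S6, within the background range, so that its fold depends on that background, and 6.05 and 6.19 in B6. It rose by 1.85 ± 0.15 (SE, 3.61-fold; limma adjusted p = 0.0429; 95% interval 1.43 to 2.27). It was not called after quantile normalization (0.0517), with all probe sets tested (0.108) or without the 129S6 female array (0.0629). The other 13 regulators were not called. Of all 14, 8 were lower in B6 by any amount (57.1%, against 52.5% of all genes) and 6 higher, with a median of -0.07. The lowest was Tfb1m, which read 8.18 and 8.35 in 129S6 and 7.87 and 7.50 in B6 (-0.58, limma adjusted p = 0.290). Ppargc1b read 8.09 and 8.24 in 129S6 and 7.96 and 7.63 in B6 (-0.37), also without overlap. The genes of the factors NRF1 and GABP, Nrf1 (0.01) and Gabpa (0.01), had arrays that overlapped between the strains.

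Of the pyruvate dehydrogenase and citric acid cycle genes, which feed the chain, 14 of 16 (87.5%) were lower in B6 by any amount, against 52.5% of all genes (median -0.19, 0 called). The lowest was Suclg2, a subunit of the succinyl-CoA synthetase that forms GTP, which read 8.19 and 8.20 in 129S6 and 7.24 and 7.57 in B6 (-0.79, adjusted p = 0.164). Next was Fh1, the fumarase, with 9.53 and 9.43 in 129S6 and 8.84 and 8.85 in B6 (-0.63, adjusted p = 0.190), named because of its value. In both, the B6 arrays lay below the 129S6 arrays, by amounts that did not pass the test. At the other end was Suclg1, the subunit that pairs with Suclg2, with 0.35. Of the glycolysis genes, 10 of 13 (76.9%) were lower (median -0.22, 0 called). Pfkl, the liver type phosphofructokinase, read 10.27 and 10.04 in 129S6 and 9.15 and 9.17 in B6 (-0.99, adjusted p = 0.114), and Hk3, the hexokinase of white blood cells, read 10.29 and 10.62 in 129S6 and 11.42 and 11.33 in B6 (0.92, adjusted p = 0.144). Their arrays did not overlap between the strains, in opposite directions.

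The mitochondrial ribosomal proteins translate the subunits that were not measured. Their genes were lower in B6 in 50 of 71 (70.4%, against 52.5% of all genes), with a median of -0.11 and 0 called. They were lower in males of both strains in 36 of 71 (50.7%, against 24.1% of all genes), near the share of the chain genes. The assembly lists of complexes II, III and IV and of ATP synthase had medians of -0.03, 0.05, 0.03 and -0.15, and coenzyme Q synthesis had -0.12, with 0 called in each. Other complex I assembly genes had a median of -0.13, mitochondrial carriers, pores and import genes -0.08, and cytochromes c and c1 -0.11, also with 0 called. In the list of itaconate, uncoupling and superoxide genes (median -0.32, 0 called), the B6 male array stood apart in 2 of 5 genes. Acod1, which makes itaconate, an inhibitor of succinate dehydrogenase, read 12.23 and 12.17 in 129S6, and in B6 12.13 in females and 8.94 in males. Sod2, the mitochondrial superoxide dismutase, read 12.66 and 12.62 in 129S6 and 12.30 and 10.87 in B6. Among the 4 genes of complex II, male minus female in B6 was -0.25 for Sdhb, -0.23 for Sdhd, 0.03 for Sdha and 0.07 for Sdhc. In 129S6 it was 0.14, -0.24, -0.05 and 0.15 in that order. Any link between Acod1 and complex II was not tested.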

How the data were processed

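The authors labelled 250 ng of RNA per array and deposited log2 intensities per probe set, computed in Affymetrix Expression Console. Its version, summarization and background correction are not given in the sources used here. The labels give 3 mice per pool, the methods a larger number. Of 41345 probe sets, 23521 had a single gene symbol, 1820 had several and 16004 had none or were not listed; 23328 were matched to RefSeq by gene number. The probe set with the highest mean was kept per gene, which left 22180 genes. Array number, not depth, limits the precision, and probe sequences were not examined, so strain variants under a probe were not looked at.

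Strain and sex were additive terms of a linear model fitted to all genes with limma 3.58.1 (lmFit, eBayes) in R 4.3.3, with Benjamini-Hochberg adjustment. With 1 residual degree of freedom and 3.18 from the prior, the test borrows its spread across genes, and p-values cover only the spread between these arrays. The fit was tried on simulated data only at strain effects larger than those of the respiratory chain genes, so it tells nothing of smaller ones. Full values are given for genes of each complex with the largest differences on either side without overlap, isoform families and core catalytic subunits, and for sex the 3 largest on each side. Members, lists and tests were chosen with earlier results of these data known. The alternatives, 10 in all, were no sex term, a variance prior following the level, brighter genes alone, the mean of a gene's probe sets, quantile normalization, all probe sets, and leaving out each array.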

Additional observations from a re-analysis of the deposited data

How the results depend on the processing

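The count of respiratory chain genes called for strain, 0, became 2 (Cox7a2l and Cox7c) with a variance prior that follows the level, where 5.66% of all genes were called, and 1 (Cox7a2l) among the brighter genes alone (5.31%). Leaving out single arrays gave 0 to 1, the 1 being Cox7c without the B6 male array (1.2% of all genes). The count was 0 under the other alternatives, as was the sex count under all 10. The count over all genes, 189, was 431 without the sex term, 1256 with that prior, 589 among brighter genes and 81 after quantile normalization. With all probe sets tested, an alternative chosen after seeing the data, limma called 0, with 5707 at an unadjusted p under 0.05. Leaving out single arrays gave 84 (without the 129S6 female array), 321 (129S6 male), 564 (B6 female) and 267 (B6 male). These fits on 3 arrays had no sex term, and the lone array of a strain is assumed to vary like the others. The median of complex III was -0.027 after quantile normalization, and that of complex IV 0.019, its sign turned, with the mean of probe sets and -0.051 among brighter genes. The differences, and so the medians, are the same without the sex term. Left-out arrays gave medians of -0.12 to 0.016 for complex I, -0.094 to 0.012 for II, -0.12 to 0.08 for III, -0.097 to 0.086 for IV and -0.13 to 0.0032 for V. Of the strain differences of named genes, 423 values kept sign and side of the threshold, 17 changed sign and 4 newly passed; all 58 for sex kept both. Atp5a1 became -0.061 after quantile normalization and Cox7b 0.20 with the mean of its probe sets. With arrays left out, the lowest and highest values were -0.13 and 0.13 for Atp5a1, -0.022 and 0.57 for Cox4i1, -0.032 and 0.086 for Cox6a1, -0.079 and 0.055 for Cox6b1, -0.46 and 0.023 for Cox6b2, -0.20 and 0.24 for Cox7a2, -0.24 and 0.054 for Cox7b, -0.57 and 0.15 for Ndufa4, -0.16 and 0.016 for Ndufs1 and -0.24 and 0.077 for Uqcrc1. The cause of these changes was not tested. The labels give no replicate numbers, so arrays were not paired beyond sex. Sex, which the strains share, is a term of the model. The strain difference fitted on all 4 arrays is thus the mean of the female and the male difference.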
